A study of Mus musculus with 7 samples.

Results

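Complement components and receptors were followed as 8 genes: the C1q subunits C1qa, C1qb and C1qc, the alternative-pathway genes C3, Cfb and Cfp, and the anaphylatoxin receptors C5ar1 and C3ar1. They were chosen by symbol, as the gene rows with these names in all 7 count matrices, and all 8 were found once in each matrix, out of 27514 genes common to the matrices. The study profiled leukocytes of the mouse heart by droplet single-cell RNA sequencing after myocardial infarction. The infarct was made by tying off a coronary artery. C57BL6/J mice were used throughout, male where the sex was labelled.

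The CD45+ libraries held sorted heart leukocytes with no infarct (steady state, 5 pooled mice) and at day 1 (5 mice), day 3 (5 mice), day 5 (5 mice) and day 7 (3 mice) after infarction, and part of the neutrophils was removed before loading. A separate CD11b+ pool held heart myeloid cells of day 1 (5 mice, Hashtag 1), day 3 (5 mice, Hashtag 2) and day 5 (3 mice, Hashtag 3), with 10 surface antibodies read in the same cells. In both experiments cells stained by an intravenous CD45.2 antibody were left out of the sort, the heart was digested with enzymes, and mice of 1 time point were pooled, so p-values below measure the spread between sums of pooled cells, not between animals. The CD45+ libraries used the v2 kit and the CD11b+ pool the v3 kit. A further library, the blood and heart pool, mixed CD11b+ cells of mice aged 8 to 10 weeks under 7 hashtags: no surgery (3 mice), sham surgery at day 1 (3) and day 3 (3), and infarction at day 1 (5) and day 3 (5), with infarcted heart dissociated mechanically, permanent ligation as the infarct model, and Ly6G+ and Ly6G- cells mixed about equally. No label ties those 7 hashtags to conditions.

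Complement is a cascade of blood and tissue proteins that marks particles for uptake and recruits leukocytes. C1q, built from the A, B and C chains, is the recognition unit of the classical pathway, also binds dying cells, and is made largely by macrophages rather than by the liver. C3 is the central component whose fragments opsonise targets, factor B (Cfb) supplies the protease of the alternative-pathway convertase, and properdin (Cfp) stabilises that convertase and is stored in neutrophils. C5ar1 and C3ar1 are the receptors of the anaphylatoxins C5a and C3a on myeloid cells.

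After filtering, 522 to 1793 cells per CD45+ library, 4263 cells from the CD11b+ experiment and 9999 from the blood and heart experiment were used. Clusters with most markers of monocytes and macrophages, called mono/mac, gave sums of 228 to 1335 cells and 2335112 to 42328844 UMIs (unique molecular identifiers, each 1 captured transcript) at days 1, 3 and 5. Neutrophil sums were smaller, at 40 to 1002 cells and 104690 to 4115608 UMIs. Levels are given as CPM, the UMIs of a gene per 1000000 UMIs of the summed cells, and the 95% exact Poisson intervals cover counting error only. The 16 neutrophil markers summed to 19331 CPM in the day 1 mono/mac cells of the CD45+ libraries, with none at 0, against 159 to 1893 CPM at the other times and 653 to 2376 CPM in the CD11b+ pool. The day 1 mono/mac cells of that library were in 1 cluster for 231 of 246, which against all cells led with Saa3, Cxcl3 and Arg1, with 1 mono/mac marker and no neutrophil marker in the first 10. The sum of that library enters the day 1 values below, and the part of those transcripts was not tested, though results are also given without that sum. Barcodes were shared by at most 2 cells between any CD45+ libraries, and 28 were common to both pools.

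In GENCODE M21 (GRCm38), all 8 members are protein-coding genes on the minus strand. The C1q genes lie side by side on chromosome 4, with C1qb at chr4:136880129-136886187, C1qc at chr4:136889804-136893065 and C1qa at chr4:136895917-136898803, together spanning 18.7 kb. C3 is at chr17:57203970-57228136, Cfb at chr17:34856374-34862518, Cfp at chrX:20925454-20931555, C5ar1 at chr7:16246743-16259540 and C3ar1 at chr6:122847138-122856161. Cfb is overlapped on its own strand by the annotated readthrough gene Gm20547, which held 0 UMIs in all 12 mono/mac and neutrophil sums, so Cfb counts depend on how shared reads were assigned. RefSeq promoters (GRCm38.p6) were found for 6 of the 8 members. The bases just upstream of the transcription start are printed for a pair of members that rose in mono/mac from day 1 to day 5 (C1qb and C3ar1) and a pair that fell (C3 and Cfp), 5′ to 3′ on the gene's strand, with motif matches on either strand in capitals.
C1qb: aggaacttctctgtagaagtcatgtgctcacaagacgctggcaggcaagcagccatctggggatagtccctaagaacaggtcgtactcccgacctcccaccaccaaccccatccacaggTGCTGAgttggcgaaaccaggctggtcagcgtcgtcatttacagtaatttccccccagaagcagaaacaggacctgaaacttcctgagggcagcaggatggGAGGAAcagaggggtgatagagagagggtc
C3ar1: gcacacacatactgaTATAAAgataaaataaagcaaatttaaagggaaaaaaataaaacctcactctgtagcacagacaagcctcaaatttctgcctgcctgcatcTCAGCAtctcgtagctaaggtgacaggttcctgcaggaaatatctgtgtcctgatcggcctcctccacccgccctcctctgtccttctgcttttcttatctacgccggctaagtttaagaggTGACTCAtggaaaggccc
C3: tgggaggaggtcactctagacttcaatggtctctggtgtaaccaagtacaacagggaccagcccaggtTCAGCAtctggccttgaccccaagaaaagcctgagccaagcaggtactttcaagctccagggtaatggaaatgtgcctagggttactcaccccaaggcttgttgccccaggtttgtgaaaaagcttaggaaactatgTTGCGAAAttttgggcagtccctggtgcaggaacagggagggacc
Cfp: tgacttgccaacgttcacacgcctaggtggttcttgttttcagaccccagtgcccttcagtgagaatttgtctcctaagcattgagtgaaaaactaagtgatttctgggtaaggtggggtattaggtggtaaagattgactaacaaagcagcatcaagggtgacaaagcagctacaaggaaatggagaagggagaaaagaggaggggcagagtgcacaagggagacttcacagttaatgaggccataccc
These lines cover chr4:136886201-136886450, chr6:122856162-122856407, chr17:57228137-57228386 and chrX:20931556-20931805. Letters searched were GAGGAA (the core bound by PU.1), TTGCNNAA (C/EBP), TGANTCA (AP-1), TGCTGA (part of a Maf recognition element) and TATAAA (the TATA box), and none contains another. Among 32851 promoters, 250 upstream bases held GAGGAA in 23.3%, TTGCNNAA in 9.56%, TGANTCA in 6.75%, TGCTGA in 16.1% and TATAAA in 12.4%. C1qb held 1 GAGGAA, starting 30 bases from the printed end, and 1 TGCTGA. C3ar1 held 1 TGANTCA starting 18 bases from the end, 1 TGCTGA, and 1 TATAAA starting 231 bases from the end. C3 held 1 TTGCNNAA starting 45 bases from the end and 1 TGCTGA, and none of these letters was in the Cfp window. These are matches of letters in a short window.

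The C1q subunits were the members with the widest range over time. C1qa stood at 6659 CPM (interval 6578 to 6741) in mono/mac cells at steady state, and then at 241 CPM at day 1, 1092 CPM at day 3, 3062 CPM at day 5 and 4210 CPM at day 7 in the CD45+ libraries. In the CD11b+ pool C1qa was 634 CPM at day 1, 1646 CPM at day 3 and 2771 CPM at day 5. Both experiments thus had their lowest C1qa at day 1 and their highest infarct value at the last day sampled, and steady state exceeded every infarct library. C1qb read 6462, 415, 1770, 4443 and 4897 CPM at steady state and days 1, 3, 5 and 7, and 937, 2057 and 3359 CPM at days 1, 3 and 5 of the CD11b+ pool. C1qc read 5110, 251, 967, 2970 and 3096 CPM in the CD45+ libraries in the same order, and 418, 1055 and 1834 CPM in the pool. The 3 subunits kept the same order of times within each experiment.

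**Figure D1:**
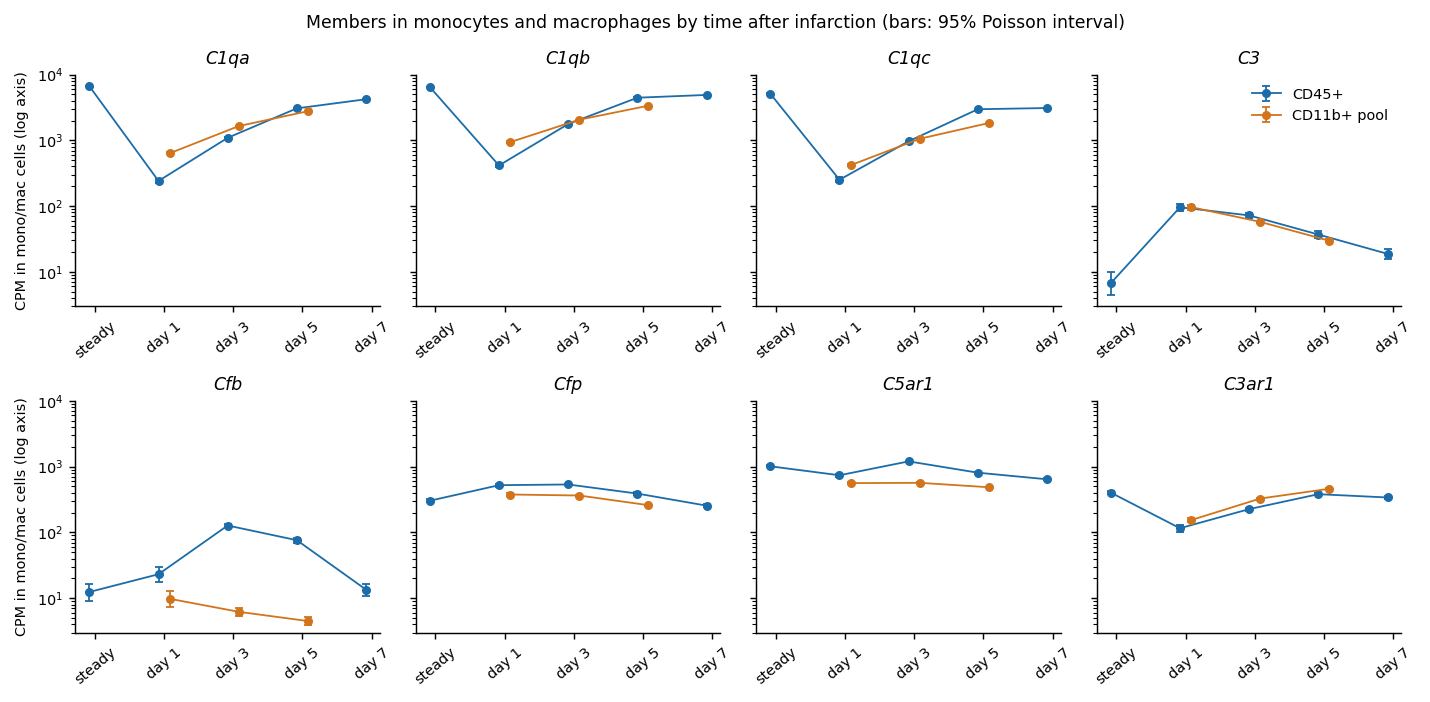
Level of each member (CPM, log axis) in mono/mac cells by time, with 95% Poisson intervals for the CD45+ libraries (blue) and the CD11b+ pool (orange), 1 sum per point. The C1q subunits and C3ar1 are lowest at day 1, C3 is highest there, and Cfb differs most between the experiments.

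Day 1 and steady state are 1 library each, so their difference has no replicate check. C1qa at day 1 was 0.0362 times its steady-state level, C1qb 0.0641 times, C1qc 0.0492 times and C3ar1 0.287 times, while C3 was 14.3 times higher. These 4 lower members and 1 higher member are counts past 2-fold among 8, and over all 4918 genes with at least 20 CPM in either sum 25.8% were at least 2-fold lower and 15.6% at least 2-fold higher. Cfb (1.86 times), Cfp (1.72 times) and C5ar1 (0.731 times) stayed within 2-fold. With each cell's class taken from its own marker UMIs, Cfb was 2.52 times higher, which makes 2 higher members.

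From day 1 to day 5 the C1q subunits and C3ar1 rose in mono/mac cells and C3 and Cfp fell. C1qa rose by a log2 of 2.63 ± 0.35 (SE; edgeR quasi-likelihood test over 2 sums per day, adjusted p = 0.0135), with 3.36 in the CD45+ libraries and 1.92 in the CD11b+ pool. C1qb rose by 2.36 ± 0.36 (edgeR, adjusted p = 0.0183) and C1qc by 2.59 ± 0.33 (edgeR, adjusted p = 0.0123). Of the 8 members, 4 were called higher and 2 lower, against 4.5% of all 10614 tested genes called higher and 5.97% called lower. The C1q subunits moved together, so their calls are not separate observations. The members were also chosen with earlier results of these data known, so the counts are a description. The median log2 change was 0.67 over the members and -0.01 over all genes. Without the CD45+ day 1 sum edgeR called 7 members, the added one being Cfb. Without the experiment term none of the 6 calls held (5 members at an unadjusted p under 0.05), and without the CD45+ day 5 sum C3, C3ar1 and Cfp were no longer called, which left 3. Scaled by total counts alone, 5 of the 6 were called, the median of all genes moved to 0.23, and the share of called genes that were higher went from 43% to 65.5%.

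Across the shorter intervals no member was called by edgeR in the fit of all sums. From day 1 to day 3 the C1q subunits changed by log2 1.50 (C1qa), 1.33 (C1qb) and 1.37 (C1qc), with edgeR adjusted p-values of 0.113, 0.148 and 0.119. 5 of the 8 members had an unadjusted p under 0.05 there, and DESeq2 called 5. Over all genes 0.217% were called higher and 0.631% lower in that interval. Without either day 1 sum edgeR called 5 members (CD45+) or 6 members (pool), and without either day 5 sum it called the 3 subunits. From day 3 to day 5 the subunits changed by log2 1.13, 1.03 and 1.22, 6 members had an unadjusted p under 0.05, and DESeq2 called 2. In that interval 0.0188% of all genes were called higher and 0% lower. The subunits changed by log2 1.097, 0.996 and 1.185 without the CD45+ day 1 sum, and by 1.088, 0.987 and 1.176 without the pool's. A fit that leaves out 1 sum has fewer residual degrees of freedom than the full fit, so calls from it are less certain. From day 5 to day 7, 1 library each, C1qa was 1.37 times, C1qb 1.10 times and C1qc 1.04 times the earlier level.

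**Figure D2:**
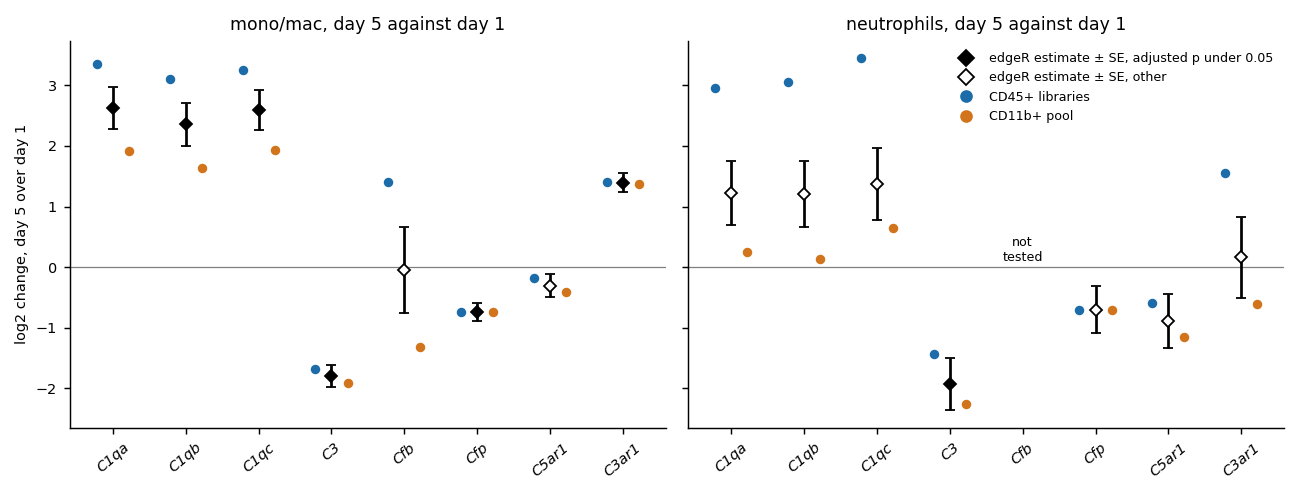
Log2 change of each member from day 1 to day 5 in mono/mac cells (left) and neutrophils (right), as the edgeR estimate with its SE (diamonds, filled where the adjusted p is under 0.05) and the value within each experiment (blue, CD45+ libraries; orange, CD11b+ pool). The C1q subunits and C3ar1 lie above 0 and C3 below it in mono/mac cells, and Cfb lies on opposite sides of 0 in the 2 experiments.

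The share of mono/mac cells with a C1q UMI moved with the level. With every cell thinned to 1000 UMIs, C1qa was seen in 98.3% of steady-state cells, 12.6% at day 1, 30.5% at day 3, 67.1% at day 5 and 83.6% at day 7, and in 24.6%, 46.3% and 69.5% at days 1, 3 and 5 of the CD11b+ pool. Unthinned, the same shares were 100%, 21.1%, 62%, 89.7% and 98.6%, and 75%, 83% and 91.9%. Cells with no UMI of any subunit after thinning made up 0.191% at steady state, 79.7% at day 1, 48.9% at day 3, 17.3% at day 5 and 6.34% at day 7. All 3 subunits were seen together in 96%, 9.76%, 22.5%, 57.8% and 70.4% of cells in that order. Lymphocytes, which are not known to make C1q, serve as a background level: at day 7 C1qa was seen in 36.3% of 964 B cells, 32.6% of 95 T cells and 31.7% of 41 NK cells after thinning (median depths of 2756.5, 3727 and 4178 UMIs, against 10586 for mono/mac). Within the day 1 and day 3 CD45+ libraries, neutrophils, which are not known for C1q either, had 0.926% and 11.1% (median depths of 3393.5 and 2953 UMIs, against 9188 and 10678.5 for mono/mac). The source of those UMIs, free RNA or doublets among others, was not tested. By level, B cells held 11.3% of the C1qa, 11.1% of the C1qb and 9.14% of the C1qc CPM of the mono/mac cells beside them.

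Within mono/mac cells, C1q differed between clusters made without any member or pathway gene among the variable genes. Clusters are named by their markers, and cluster against cluster is a description. In the resident-like cluster C1qa was 6908 CPM at steady state (506 cells) and 6746 CPM at day 7 (72 cells). In the Trem2 lipid-like cluster, which led with Gpnmb, Fabp5, Spp1 and Trem2, C1qa was 2194 CPM at day 3, 3615 CPM at day 5 and 4346 CPM at day 7. The Ly6c2 monocyte-like cluster had 255, 517 and 635 CPM at the same days, and cluster 10, which held 231 of the 246 day 1 cells, had 230 CPM. Cluster 10 is left unnamed because S100a8, S100a9 and Lcn2, which are neutrophil markers, are among its leading genes within mono/mac cells. At a Leiden resolution of 0.8, in place of 0.5, a cluster of 209 cells that also led with Cxcl3, Lcn2 and S100a8 had 44.9 CPM of C1qa. In the CD11b+ pool Ly6c2 monocyte-like cells had 646 CPM and Trem2 lipid-like cells 2270 CPM at day 3, and 1870 and 3127 CPM at day 5, the same order as in the CD45+ libraries. Cluster 7 of the pool, led by Saa3, Ccl24 and Il6 and given different names with different settings, had 1079, 1854 and 2286 CPM at days 1, 3 and 5.

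Both the share of each cluster and the C1q level inside it differed between days. Trem2 lipid-like cells were 31.5% of mono/mac cells at day 3, 71.6% at day 5 and 74.5% at day 7 of the CD45+ libraries, and 4.39%, 37.6% and 59% at days 1, 3 and 5 of the pool. Ly6c2 monocyte-like cells were 57.3%, 24.9% and 12.5% at days 3, 5 and 7, and 75%, 45.9% and 26.7% at days 1, 3 and 5 of the pool. Trem2 lipid-like cells held 77.3% of the C1qa UMIs at day 3 and 93.1% at day 5 of the CD45+ libraries. Inside the Ly6c2 monocyte-like cluster of the pool C1qa went from 331 CPM at day 1 to 646 and 1870 CPM. That cluster, of 1027 cells over all days, led with as many MHC class II genes as Ly6c2 monocyte markers (4 each). At a Leiden resolution of 0.8 the pool's Ly6c2 monocyte-like cluster held 356 cells, and clusters named for MHC class II genes held 362 and 117. The part of a changing mix of cells inside the cluster was not tested.

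**Figure D3:**
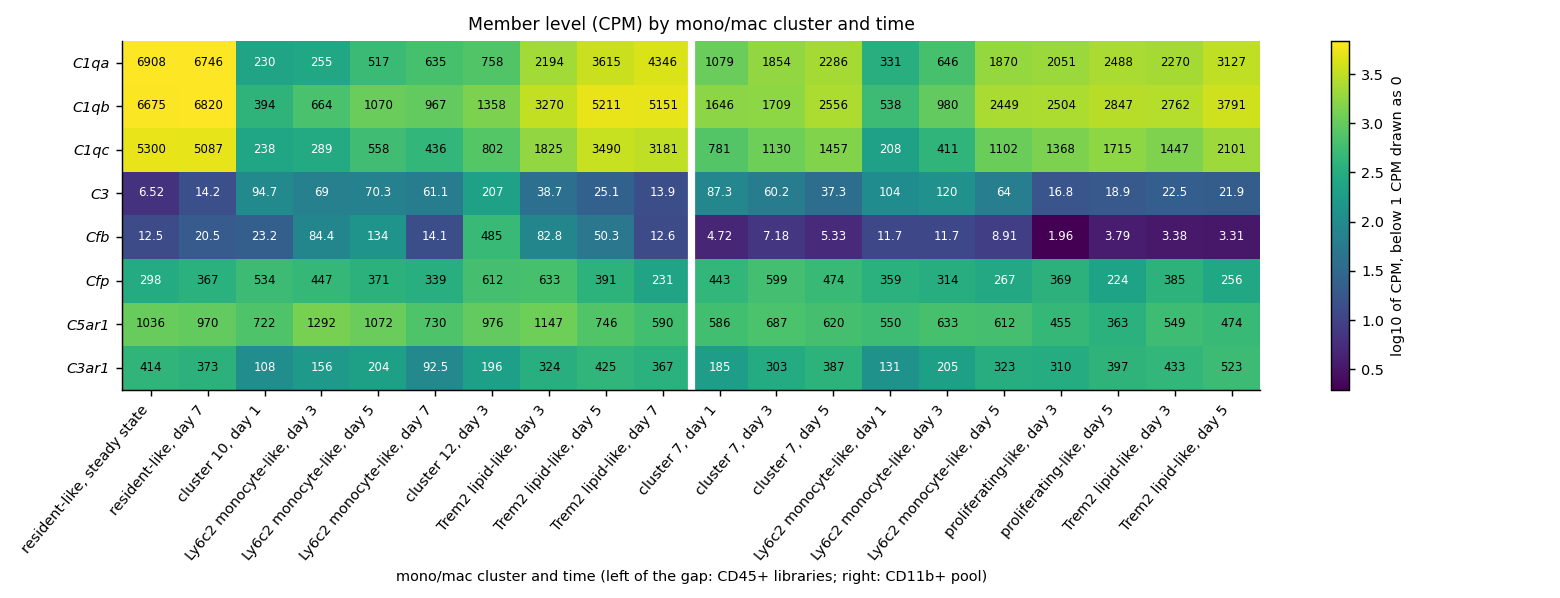
Level of each member (CPM, printed in each cell; colour on a log10 scale) by mono/mac cluster and time with at least 30 cells, the CD45+ libraries left of the gap and the CD11b+ pool right of it. C1qa runs from 230 CPM (cluster 10, day 1) to 6908 CPM (resident-like, steady state), while C3 is 94.7 CPM and 6.52 CPM in the same columns. Clusters given by number have no name.

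C3 had the opposite course to C1q in mono/mac cells. It stood at 6.72 CPM (26 UMIs) at steady state, 95.9 CPM at day 1, 72.2 CPM at day 3, 37 CPM at day 5 and 18.8 CPM at day 7, and at 96.5, 57.6 and 29.7 CPM in the CD11b+ pool. In both experiments C3 was highest at day 1 and lowest at the last day sampled after infarction, and every infarct library lay above steady state. C3 fell by a log2 of 1.80 ± 0.18 from day 1 to day 5 (edgeR, adjusted p = 0.00694), by 1.69 in the CD45+ libraries and 1.91 in the pool. In Ly6c2 monocyte-like cells of the CD45+ libraries C3 was 69, 70.3 and 61.1 CPM at days 3, 5 and 7, and in Trem2 lipid-like cells 38.7, 25.1 and 13.9 CPM. In the pool it was 104, 120 and 64 CPM in Ly6c2 monocyte-like cells and 22.5 and 21.9 CPM in Trem2 lipid-like cells at days 3 and 5.

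By CPM, neutrophils of the CD11b+ pool had more C3 than the mono/mac cells beside them. C3 was 406 CPM at day 1, 259 CPM at day 3 and 145 CPM at day 5 in these neutrophils, and 130, 92.1 and 115 CPM in neutrophils of the CD45+ libraries. CPM is a share of the summed UMIs, and neutrophils held fewer UMIs per cell. Over days 1, 3 and 5 together, the pool held 1661 C3 UMIs in 1483 neutrophils and 3829 in 2652 mono/mac cells. Per cell, its neutrophils thus held no more C3 UMIs than its mono/mac cells. In the blood and heart pool C3 was 128 CPM in neutrophils and 338 CPM in mono/mac cells. Thinned to 1000 UMIs, 29.3%, 19.3% and 11% of the pool's neutrophils had a C3 UMI. From day 1 to day 5 C3 fell in neutrophils by a log2 of 1.93 ± 0.44 (edgeR with TMM scaling, adjusted p = 0.00948), the only one of the 7 members tested that was called, against 6.1% of all 6217 genes called lower and 2.33% called higher. This call depends on the scaling: scaled by total counts alone the log2 change was -0.94 and was not called (edgeR, adjusted p = 0.128), the median of all genes moved from -0.02 to 0.90, and the share of called genes that were higher went from 27.7% to 92.7%. With that scaling the 3 C1q subunits were called higher instead, and likewise with TMM without the pool's day 1 sum, which raised the count to 4. The C3 call was also lost without either day 5 sum, the CD45+ one holding 12 C3 UMIs in 40 cells. DESeq2 called 1 member too. No member was called from day 1 to day 3 (1 at an unadjusted p under 0.05; 0 by DESeq2) or from day 3 to day 5 (0 unadjusted; 0 by DESeq2), where 0.659% and 0% of all genes were called higher and 2.2% and 0% lower. Without the pool's day 1 sum the 3 C1q subunits were called higher at day 3, and without the CD45+ day 1 sum C3 alone was called, as lower.

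Whether a day effect differed between mono/mac cells and neutrophils was tested in 1 fit over all 12 sums. edgeR called 0 of 8 members for day 3 against day 1 (0 unadjusted; 0 by DESeq2) and 0 of 8 for day 5 against day 1 (1 unadjusted, C3ar1; 0 by DESeq2). Without the pool's day 1 mono/mac sum it called 3 for day 5. Over 10164 genes 0.0197% were called higher and 0% lower for the former, and 0.285% and 0.403% for the latter.

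Cfb was the member on which the experiments differed most in mono/mac cells. In the CD45+ libraries mono/mac Cfb was 12.4 CPM at steady state, 23.1 CPM at day 1, 127 CPM at day 3, 76.1 CPM at day 5 and 13.5 CPM at day 7. The CD11b+ pool read 9.79 CPM at day 1, 6.21 CPM at day 3 and 4.49 CPM at day 5. At days 3 and 5 the intervals of the experiments were far apart. The log2 change from day 1 to day 3 was 2.20 in the CD45+ libraries and -0.86 in the pool (0.63 together; edgeR, adjusted p = 0.669), and to day 5 it was 1.41 and -1.32 (-0.05 together; edgeR, adjusted p = 0.971). Without the CD45+ day 1 sum the day 5 change was called lower (log2 -1.36; edgeR, adjusted p = 0.000764), and without the pool's day 1 sum it was 1.49. The experiments differ in sort, kit, gene annotation and mice, and these cannot be told apart. From day 5 to day 7 Cfb was 0.177 times the earlier level in the CD45+ libraries, the only member past 2-fold there, against 1.18% of 4581 genes at least 2-fold lower and 1.07% at least 2-fold higher.

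One small cluster held much of the day 3 Cfb of the CD45+ libraries. It had 67 cells at day 3, met no name by its markers, and led with Saa3, Hp, Slpi and Cfb itself. Its Cfb level was 485 CPM (interval 438 to 536) at day 3, against 84.4 CPM in Ly6c2 monocyte-like cells and 82.8 CPM in Trem2 lipid-like cells of that library. With 10.6% of the mono/mac cells it held 41.8% of their Cfb UMIs and 31.5% of their C3 UMIs. Its C3 level was 207 CPM, the highest of any mono/mac cluster and day with at least 30 cells in the CD45+ libraries. This cluster depends on the settings. Over all days it held 84 cells, and a like cluster held 88 at a Leiden resolution of 0.8. At 0.3 no mono/mac cluster of these libraries led with Cfb. With at most 5% or 20% mitochondrial UMIs, the cluster led by Saa3 and Hp held 205 or 142 cells, and the latter took an early inflammatory name. Neutrophils of the CD45+ libraries had 0 Cfb UMIs at day 1, which allows up to 3.45 CPM, 5 at day 3 (11.8 CPM, interval 3.83 to 27.6) and 1 at day 5. Those of the pool had 0 Cfb UMIs at all 3 days, which allows up to 2.63 CPM at day 1, 0.729 CPM at day 3 and 3.25 CPM at day 5.

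Properdin transcripts (Cfp) were spread over all myeloid classes. In mono/mac cells Cfp was 303 CPM at steady state, 522 CPM at day 1, 535 CPM at day 3, 389 CPM at day 5 and 255 CPM at day 7, and 377, 364 and 259 CPM in the pool. It fell by a log2 of 0.74 ± 0.15 from day 1 to day 5 (edgeR, adjusted p = 0.0345), by 0.74 in each experiment. That call was lost in 4 of the 6 fits that left out 1 sum and with total-count scaling (log2 -0.48; edgeR, adjusted p = 0.089). Dendritic-like cells had 708 and 596 CPM at days 5 and 7 of the CD45+ libraries and 504 and 372 CPM at days 3 and 5 of the pool, each above the mono/mac cells of the same library (139% to 234% of their level). Neutrophils had 254, 309 and 373 CPM in the CD45+ libraries and 199, 186 and 210 CPM in the pool.

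By CPM, C5ar1 was higher in neutrophils than in the mono/mac cells of every library with both. Per cell the order differed, since neutrophils held fewer UMIs. The CD11b+ pool held 7563 C5ar1 UMIs in 1483 neutrophils and 43788 in 2652 mono/mac cells. The CD45+ libraries together held 3067 in 425 neutrophils and 23892 in 2705 mono/mac cells, so neutrophils had fewer per cell in both. The blood and heart pool went the other way, with 10434 in 6334 neutrophils and 3607 in 3188 mono/mac cells. Neutrophils had 1625, 2911 and 2579 CPM at days 1, 3 and 5 of the CD45+ libraries and 1402, 1205 and 1085 CPM in the pool, which is 213% to 319% of the mono/mac level in the same library. Thinned to 1000 UMIs, C5ar1 was seen in 74.1%, 94.8% and 90% of CD45+ neutrophils and in 65%, 64.9% and 59.2% of pool neutrophils. The log2 change from day 1 to day 5 in neutrophils was -0.89 with TMM scaling (edgeR, adjusted p = 0.222) and 0.13 with total counts alone, so its direction flipped with the scaling. Without the CD45+ day 1 sum it was called lower with TMM (log2 -1.24; edgeR, adjusted p = 0.0486). In mono/mac cells C5ar1 was 1011 CPM at steady state, 739, 1201, 808 and 642 CPM at days 1, 3, 5 and 7, and 561, 567 and 486 CPM in the pool. Its change from day 1 to day 5 there was log2 -0.31 ± 0.20 (edgeR, adjusted p = 0.325), the smallest of the tested members after Cfb.

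C3ar1 followed C1q rather than C5ar1. It was 402 CPM at steady state, 116 CPM at day 1, 226 CPM at day 3, 381 CPM at day 5 and 339 CPM at day 7 in mono/mac cells, and 154, 327 and 461 CPM in the pool. From day 1 to day 5 it rose by a log2 of 1.40 ± 0.16 (edgeR, adjusted p = 0.00971), with 1.41 in the CD45+ libraries and 1.38 in the pool. In the pool it was 205 CPM in Ly6c2 monocyte-like and 433 CPM in Trem2 lipid-like cells at day 3, and 323 and 523 CPM at day 5. Neutrophil levels were 8.06 to 57.3 CPM.

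C1q transcripts were also counted in neutrophils. C1qa was 13.8 CPM (12 UMIs), 113 CPM and 258 CPM at days 1, 3 and 5 of the CD45+ libraries and 86.8, 108 and 177 CPM in the pool, or 5.73% to 13.7% of the mono/mac level beside it. The B, T and NK cells of day 7 held 9.24% to 18.6%. In the same neutrophil sums the 26 mono/mac markers totalled 8498 to 22687 CPM, with 0 to 5 of them at 0. The part of mono/mac RNA in these values was not tested.

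Surface Ly6C, a readout that the clustering did not use, separated the members in the mono/mac cells of the CD11b+ pool. Cells were ranked at each day by their log antibody count minus the cell's mean over all the surface antibodies. They were cut into 3 equal groups, and the comparison is a description within 1 pool. With this centring, a cell high for 1 antibody is set lower on the others, so groups of different antibodies are not independent. In the lowest Ly6C group C1qa was 1224, 2211 and 3268 CPM at days 1, 3 and 5, and in the highest group 134, 427 and 1734 CPM, a ratio of 0.11, 0.19 and 0.53. C3 had the opposite order, with 76.1, 21 and 17.2 CPM in the lowest group and 135, 136 and 55.3 CPM in the highest, a ratio of 1.78, 6.51 and 3.21. C3ar1 went with C1q (ratios 0.59, 0.47 and 0.64) and Cfb with C3 (1.29, 5.38 and 2.22, from 16 to 122 Cfb UMIs per group). C5ar1 (1.06, 1.25 and 1.33) and Cfp (0.94, 0.70 and 1.08) had ratios nearer 1. Median depth was lower in the highest group at day 3 (23312 against 42290 UMIs) and day 5 (20548 against 35820), and its part was not tested.

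**Figure D4:**
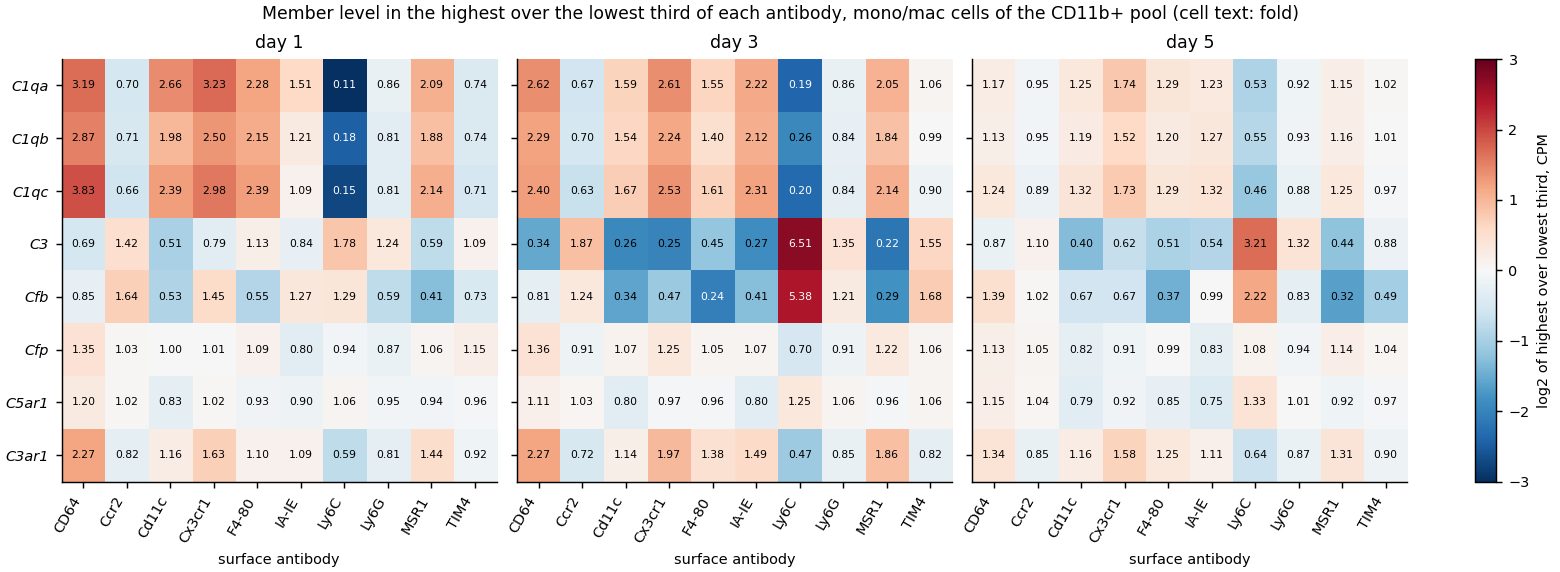
Ratio of each member's CPM in the highest over the lowest of 3 equal groups of mono/mac cells ranked by each of 10 surface antibodies, by day, in the CD11b+ pool (number in each cell; colour on a log2 scale). In Ly6C-high cells C1q is low (0.11 to 0.55) and C3 high (1.78 to 6.51), and TIM4 ratios of C1q stay between 0.71 and 1.06.

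CX3CR1, CD64 and MSR1 gave the reverse order to Ly6C. All were ranked in the same cells with the same centring, so this order is not separate evidence from that of Ly6C. C1qa in the highest over the lowest group was 3.23, 2.61 and 1.74 for CX3CR1, 3.19, 2.62 and 1.17 for CD64, and 2.09, 2.05 and 1.15 for MSR1 at days 1, 3 and 5. For C3 the same ratios were 0.79, 0.25 and 0.62, then 0.69, 0.34 and 0.87, then 0.59, 0.22 and 0.44. The C1qa ratio lay nearer 1 at day 5 than at day 1 for Ly6C, CX3CR1, CD64 and MSR1.

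In the blood and heart pool, hashtags are given by number only. C1qa in mono/mac cells was 1.07, 4.71, 2.06, 3.08 and 7.19 CPM in Hashtags 1 to 5 and 159 and 423 CPM in Hashtags 6 and 7. C1qb read 1.67 to 20.5 CPM in Hashtags 1 to 5 and 251 and 515 CPM in Hashtags 6 and 7. C3ar1 read 2.39 to 7.63 CPM and then 91.4 and 167 CPM, and C5ar1 28.8 to 60.1 CPM and then 249 and 317 CPM. Hashtags 6 and 7 held the highest values of these members. A cluster with Thbs1, Spp1, Arg1 and Ccl2 among its leading genes, C1qa and C1qb among them too, made up 50.6% and 63.6% of mono/mac cells in Hashtags 6 and 7 and at most 3.24% in Hashtags 1 to 5. It held the C1qa, at 288 and 629 CPM, while Ly6c2 monocyte-like cells of the same hashtags had 0.753 and 0.891 CPM.

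C3 showed no such gap between hashtags. It was 423, 344, 354, 320, 288, 306 and 242 CPM in mono/mac cells of Hashtags 1 to 7, and 106 to 171 CPM in neutrophils. Cfp read 104 to 188 CPM in Hashtags 1 to 5 and 248 and 277 CPM in Hashtags 6 and 7, and Cfb 0.784 to 4.03 CPM over all 7. Neutrophil C5ar1 was 400 to 530 CPM in every hashtag and neutrophil C1qa 0.874 to 3.95 CPM.

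**Figure D5:**
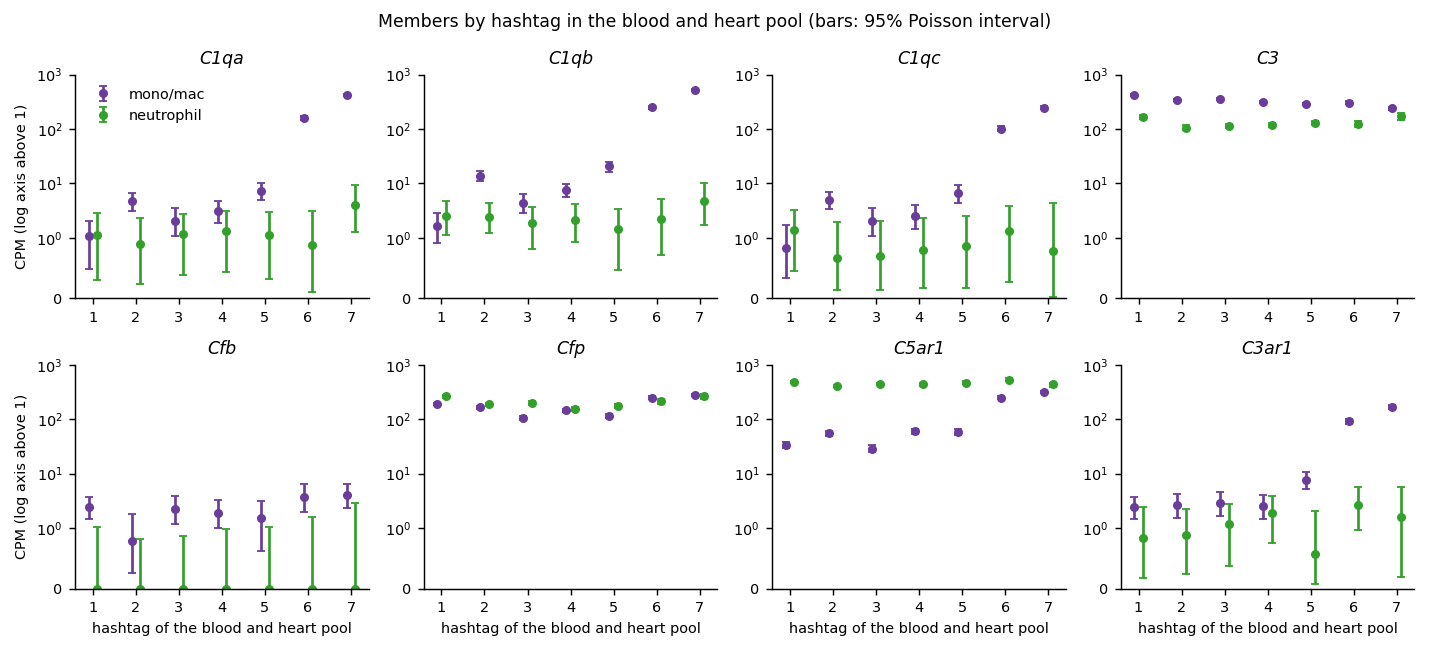
Level of each member (CPM, log axis above 1, with 95% Poisson intervals) in mono/mac cells (purple) and neutrophils (green) under the 7 hashtags of blood and heart cells. C1q, C3ar1 and C5ar1 of mono/mac cells stand higher in Hashtags 6 and 7, and C3 does not.

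The other genes of the pathway came from a list of 49 genes, of which 18 passed the filter on low counts in mono/mac cells and 10 in neutrophils. In mono/mac cells from day 1 to day 5, 1 of the 18 was called higher and 1 lower, near the 4.5% and 5.97% over all genes, so nothing particular to the list is read from them. The higher one was C4b, the component cleaved after C1q binding (log2 2.10 ± 0.295, edgeR, adjusted p = 0.0162). It was 4.28, 8.82 and 18.9 CPM in the CD45+ libraries and 2.59, 8 and 14.7 CPM in the pool at days 1, 3 and 5. Its day 1 level in the CD45+ libraries rests on 10 UMIs. The lower one was Itgam, the alpha chain of complement receptor 3 that binds cleaved C3, at 664, 309 and 168 CPM and 701, 338 and 223 CPM (log2 -2.07 ± 0.18; edgeR, adjusted p = 0.00597). Itgam also fell in mono/mac cells to day 3 (log2 -1.31; edgeR, adjusted p = 0.0431) and in neutrophils to day 3 (log2 -1.70; edgeR, adjusted p = 0.0231) and day 5 (log2 -2.13; edgeR, adjusted p = 0.00392). Itgam encodes CD11b, the protein on which the pool was sorted. Each of those last 3 calls was lost with no experiment term, with classes from each cell's own markers (edgeR, adjusted p = 0.0637, 0.468 and 0.231) and without either sum of the later day, and the neutrophil day 3 call also without either day 5 sum. With total-count scaling the log2 changes were -1.08, -1.02 and -1.14, and of these the last alone was called. The mono/mac call at day 5 was lost with no experiment term. C4b was no longer called without either day 5 sum (edgeR, adjusted p = 0.101 and 0.054) or with no experiment term. No other listed gene was called in these contrasts.

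Several pathway genes read high at steady state and low at day 1, like C1q. At day 1 against steady state the genes at least 2-fold lower included Colec12 at 0.0360, Fcna at 0.0449, Vsig4 at 0.0788, C4b at 0.0832 and Lair1 at 0.152 times the steady-state level. Their day 1 levels rest on 3, 9, 9, 10 and 28 UMIs in that order, so these ratios are rough. The integrin chains Itgam (8.82 times) and Itgb2 (2.26 times) were at least 2-fold higher. Over all genes 25.8% were at least 2-fold lower and 15.6% at least 2-fold higher. The lectin gene Fcna was 85.9 CPM at steady state and 3.85 to 71.5 CPM in the infarct libraries. Vsig4, a receptor for C3 fragments, was 48.9 CPM at steady state, 2.34 to 4.31 CPM at days 1 to 5 and 52.8 CPM at day 7. Cr1l, a membrane regulator, was 59.9 to 71.9 CPM in all CD45+ libraries. Calr, a C1q-binding chaperone, was 393 to 761 CPM in the CD45+ libraries and 958 to 1254 CPM in the pool. Clu and Cd59a, a fluid-phase and a membrane regulator, did not exceed 1.57 and 8.22 CPM. Cfd held 0 UMIs in the mono/mac sums, and the terminal genes C8g and C9 did not exceed 0.743 CPM.

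Genes with a course most like each member were ranked by Pearson correlation of log2(CPM + 1) over 13 class-by-time sums of the CD45+ libraries, among 4219 genes. These sums share libraries and mostly contrast cell classes. C1qa was nearest C1qb (r = 0.995), C1qc (0.988) and Apoe (0.986), C1qb was nearest C1qc (0.995), C1qa and Apoe (0.982), and C1qc had Sepp1 (0.974) after both other subunits. C3 was nearest Hp (0.984), Prdx5 (0.974) and Alas1 (0.969). C5ar1 was nearest Cebpb (0.976), Rab20 (0.97) and Hk3 (0.966), and C3ar1 nearest Stab1 (0.974), Lmna (0.956) and Rgl1 (0.952). Cfp had Csf2rb2 (0.958), Stx7 (0.943) and Ifitm3 (0.937), and Cfb had Dpep2 (0.926), Bnip2 (0.917) and Mcfd2 (0.894).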

How the data were processed

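Gene counts were deposited by the authors as sparse matrices of whole UMI counts per gene and cell, not normalized; per the file headers of both pools they were made with Cell Ranger 3.0.2, and for the CD45+ libraries the version is not given in the sources used here. The build was mm10, per the submitters' processing notes. Hashtag and antibody counts were deposited in the same matrices of the pools. The members and lists were chosen with earlier results of these data known.

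Cells under 200 genes or over 10% mitochondrial UMIs were dropped. In the CD45+ libraries Scrublet (scanpy 1.11.5, Python 3.11.15) removed 2 to 6 cells per library, so doublets may remain; in the pools, cells with no hashtag or several (5.85% and 5.98% of the CD11b+ cells, 1.41% and 12.3% of the blood and heart cells) were left out, by a mixture model per hashtag (scikit-learn 1.9.0). Each experiment was clustered separately (2000 variable genes without members and pathway genes, 30 components, 15 neighbours, Leiden resolution 0.5), and clusters were named from marker lists, so names are rebuilt and not the authors'. UMIs were summed over each class, time and experiment with at least 30 cells.

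edgeR 4.0.16 (R 4.3.3; TMM scaling, filterByExpr, quasi-likelihood test, two-sided) was fitted over all genes on the 6 sums of a class with day and experiment as terms (2 residual degrees of freedom, adjusted by Benjamini-Hochberg, threshold 0.05). The class difference used the 12 sums of both classes. Steady state and day 7 have 1 library each and no test; there a 2-fold difference was counted among genes with at least 20 CPM in 1 of the sums. The limit for a count of 0 is 3 UMIs. Tested on simulated data with 200 genes changed by a log2 of 2, the edgeR step recovered 75.5% with 7.36% of its calls false (10432 genes, mono/mac day 5 against day 1) and 80.5% with 3.59% false (6012 genes, neutrophils day 5 against day 1).

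Alternatives were DESeq2 1.42.0, no filter, no experiment term, leaving out each sum, a class from each cell's own markers, other mitochondrial limits and resolutions, other thinning depths, and, chosen after seeing the data, scaling by total counts alone. Named genes were all 8 members, listed pathway genes past the threshold of a comparison or among the 2 with the highest mean CPM in mono/mac of their role, and the 3 genes most correlated with each member. A result for 1 listed pathway gene is not reported here.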

Additional observations from a re-analysis of the deposited data

Results flagged for a closer look

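With TMM scaling, the CD45+ libraries and the CD11b+ pool moved in opposite directions for 12 member changes. Each experiment has 1 sum per day, so none of these differences was tested, and the experiments differ in sort, kit, annotation and mice, which cannot be told apart. In mono/mac cells the log2 change of Cfb from day 1 was 2.20 in the CD45+ libraries and -0.86 in the pool at day 3, a difference of 3.06, and 1.41 and -1.32 at day 5, a difference of 2.73. C5ar1 of the same cells changed by 0.45 and -0.19 from day 1 to day 3, a difference of 0.64.

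With TMM scaling, the C1q subunits of neutrophils were higher at day 3 than at day 1 in the CD45+ libraries and not in the pool. The differences were 2.62 for C1qa (2.31 and -0.32), 2.82 for C1qb (2.31 and -0.51) and 3.94 for C1qc (3.59 and -0.35). By CPM, C1qa of the pool's neutrophils was higher at day 3 than at day 1, so its sign there depends on the scaling. Over all neutrophil genes the median log2 change between those days was 0.006 with TMM and 0.677 with total counts alone. The day 1 sum of the CD45+ libraries held 12 C1qa UMIs and 4 C1qc UMIs. Over the same days C3ar1 differed by 0.75 (0.32 and -0.44) and C5ar1 by 0.98 (0.13 and -0.85). At day 5 against day 1 C3ar1 differed by 2.17 (1.56 and -0.62). Neutrophils of the CD45+ libraries held only 26 C3ar1 UMIs over all times together. From day 3 to day 5 C3ar1 differed by 1.42 (1.24 and -0.18), C1qc by -1.14 (-0.15 and 0.99) and Cfp by -0.29 (-0.27 and 0.02), the last of these from values close to 0.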

How the results depend on the processing

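The rise of the C1q subunits and C3ar1 and the fall of C3 and Cfp in mono/mac cells from day 1 to day 5 kept their direction under every alternative run. The 6 calls became 0 without the experiment term and ranged from 3 to 7 when 1 sum was left out.

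The number of genes called was less stable. For mono/mac day 3 against day 1 it was 90, and 495 with DESeq2, 503 with no filter, 0 with no experiment term, 4 with classes from each cell's own markers, 6 with total counts alone and 10 to 2400 with 1 sum left out. Members called there were 0, and 5 with DESeq2, 4 with no filter and 0 to 6 with 1 sum left out. For day 5 against day 1 the 1112 genes called became 0 with no experiment term and 184 to 3313 with 1 sum left out. For day 5 against day 3 the 2 genes became 105 with DESeq2, 48 with no filter, 0 with no experiment term, own-marker classes or total counts, and 0 to 1109 with 1 sum left out, and the 0 members became 2 with DESeq2 and 0 to 7.

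In neutrophils the 178 genes of day 3 against day 1 became 309 with no filter, 0 with no experiment term, 2 with own-marker classes, 402 with total counts and 40 to 695 with 1 sum left out (members 0 to 3). The 524 genes of day 5 against day 1 became 0, 5, 1189 and 19 to 1033 under no experiment term, own-marker classes, total counts and leaving 1 sum out, and the 1 member became 0, 0, 3 and 0 to 4. For day 5 against day 3 the 0 genes became 11 with no filter and 0 to 36. The class difference at day 3 (2 genes) became 211 with DESeq2, 174 with no filter, 0 with no experiment term or own-marker classes, 1 with total counts and 0 to 396, and at day 5 (70 genes) 622, 421, 0, 0, 781 and 0 to 724 in that order, with 0 to 3 members.

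Directions were compared for all members in mono/mac cells, and in neutrophils only for C3, Cfp and C5ar1 from day 1 to day 5. Among these, directions reversed for Cfb and C5ar1 in mono/mac cells and for Cfp and C5ar1 in neutrophils. The other neutrophil member changes were not compared in this way. Cfb from day 1 to day 5 was 0.041 with no filter, 1.12 with no experiment term, 0.20 with total counts and -1.36 to 1.49 with 1 sum left out. From day 1 to day 3 leaving 1 sum out gave -0.71 to 2.15 for Cfb and -0.11 to 0.40 for C5ar1, and from day 3 to day 5 -1.29 to 0.25 for Cfb. With total counts the neutrophil changes to day 5 were 0.32 for Cfp and 0.13 for C5ar1. Against steady state, 2 members were higher at day 1 with own-marker classes, and 2 were lower at day 7 than at day 5 with either 5% or 20% mitochondrial UMIs allowed, C3 being the added one. The causes were not tested.

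Levels by cluster moved in 17 of 64 values at resolution 0.3 (0.898 to 1.63 times the reported level) and in 40 of 64 at 0.8 (0.195 to 1.65 times). Each day had 2 sums, and the CD45+ neutrophil sum of day 5 held 40 cells. Days were compared within experiments through the experiment term, and the labels give no replicate numbers for a further block.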
